A study of Mus musculus with 6 samples.

Results

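The 10 genes described here encode antigens of the LSK sort gate and markers of the subsets within it, and were chosen by symbol: Kit, Ly6a, Flt3, Cd34, Slamf1, Cd48, Procr, Eng, Thy1 and Fgd5. Each symbol had 1 row in the count tables of all 6 libraries, out of 48395 symbols, and all 10 were among the 16739 genes with enough counts to be tested. LSK cells are mouse marrow cells that lack lineage antigens and carry Sca-1 and c-Kit on their surface, and RNA was sequenced from LSK cells of 3 samples labelled vector and 3 labelled Hmga2. All donor marrow was Mx1Cre; Jak2V617F/+ on C57BL/6, so every library carries the activating Jak2 allele, and donors had been primed with 5-fluorouracil. The marrow was transduced with lentivirus carrying no insert (vector) or Hmga2, a chromatin protein gene, and transplanted into lethally irradiated C57BL/6 recipients, whose marrow was collected 32 weeks later. Mx1Cre is induced by interferon and is active in blood cells and other tissues. The labels name no selection for transduced or donor cells, so residual host cells and untransduced cells cannot be told apart from the rest. The labels give neither the age of the mice nor how many mice stand behind a library, and they call the libraries of a group biological replicates.

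LSK cells are a mixture. Long-term stem cells make up a small part of the gate and are known to carry CD150 (from Slamf1), EPCR (Procr), endoglin (Eng) and a low level of Thy1, and to lack CD48, Flt3 and, in adult mice, most CD34. Multipotent progenitors gain CD34, CD48 and, on the lymphoid side, Flt3 as they leave the stem cell state. Levels below are of RNA, while the sort selected for protein, and in bulk samples fewer cells of a type and less RNA per cell cannot be told apart.

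Levels are given as CPM, a count scaled to library size with TMM factors, and total counts per library ranged from 24818011 to 35471806. Hmga2 itself had no higher mean in the libraries labelled Hmga2, with 5.96, 5.04 and 7.03 CPM in the vector libraries and 2.63, 6.63 and 5.91 CPM in the others (log2 fold change -0.25, SE 0.35; exact two-sided permutation p = 0.6, where 0.1 is the smallest value 3 libraries against 3 can give). It is not known here whether the counting took in reads of the transgene, and directions are therefore stated for libraries by their label. Of the lineage antigens stained for in such sorts, Cd3e, Cd3g, Cd5, Cd8a and Ly6g were below 1 CPM in every library. Cd4 reached 1.32 CPM and Klrb1c 5.23 CPM in vector replicate 1, and Il7r reached 4.6 CPM in Hmga2 replicate 3. Itgam, which encodes the myeloid antigen CD11b, was present at 13.6 to 33.7 CPM, and Ptprc, the general leukocyte antigen gene whose B220 form is stained, at 113 to 167 CPM. RNA of granulocyte precursors was abundant, since 10 such genes summed to 9310 CPM in vector replicate 2 and to 2980 to 4990 CPM in the other libraries. Immunoglobulin RNA, a product of plasma cells, was also abundant in vector replicates 1 and 3 and in Hmga2 replicate 2, where the IgA gene Igha stood at 8920, 5470 and 2530 CPM against 193 to 236 CPM elsewhere, and these 3 libraries are called plasma cell-rich below. The name stands for this RNA and not for a count of cells. Jchain was likewise higher there (317 to 840 against 25.4 to 45.8 CPM), while Xbp1 was at 125 CPM in Hmga2 replicate 2 and 164 CPM in vector replicate 2.

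No marker gene passed the test between the groups. In edgeR's quasi-likelihood test over all genes, 0 of the 10 had an adjusted p under 0.05, beside 0.0% of all tested genes. At an unadjusted p under 0.05 the count was 0 of 10, beside 5.59% of all genes, and the groups overlapped in CPM for every marker, while they did not overlap for 11.2% of all genes. Of the markers, 8 had a log2 fold change (labelled Hmga2 minus vector) above 0 and 2 below, with a median of 0.12 against 0.0 over all tested genes. That split rested on single libraries, since without vector replicate 2 it was 4 above and 6 below with a median of -0.06, without vector replicate 1 the median was 0.25, and without Hmga2 replicate 2 it was 0.04. With a term for libraries rich in immunoglobulin RNA all 10 were above 0, with a median of 0.24. DESeq2 called 0 of 10 after adjustment, beside 0.424% of all genes, and gave an unadjusted p under 0.05 for Kit and Flt3, 2 of 10 beside 6.3% of all genes. Levels varied more between libraries of the same group than those of most genes did. The within-group standard deviation of log2 CPM had a median of 0.41 over the 9 markers with a mean of at least 10 CPM, against 0.14 over all 10255 tested genes at that level.

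**Figure D1:**
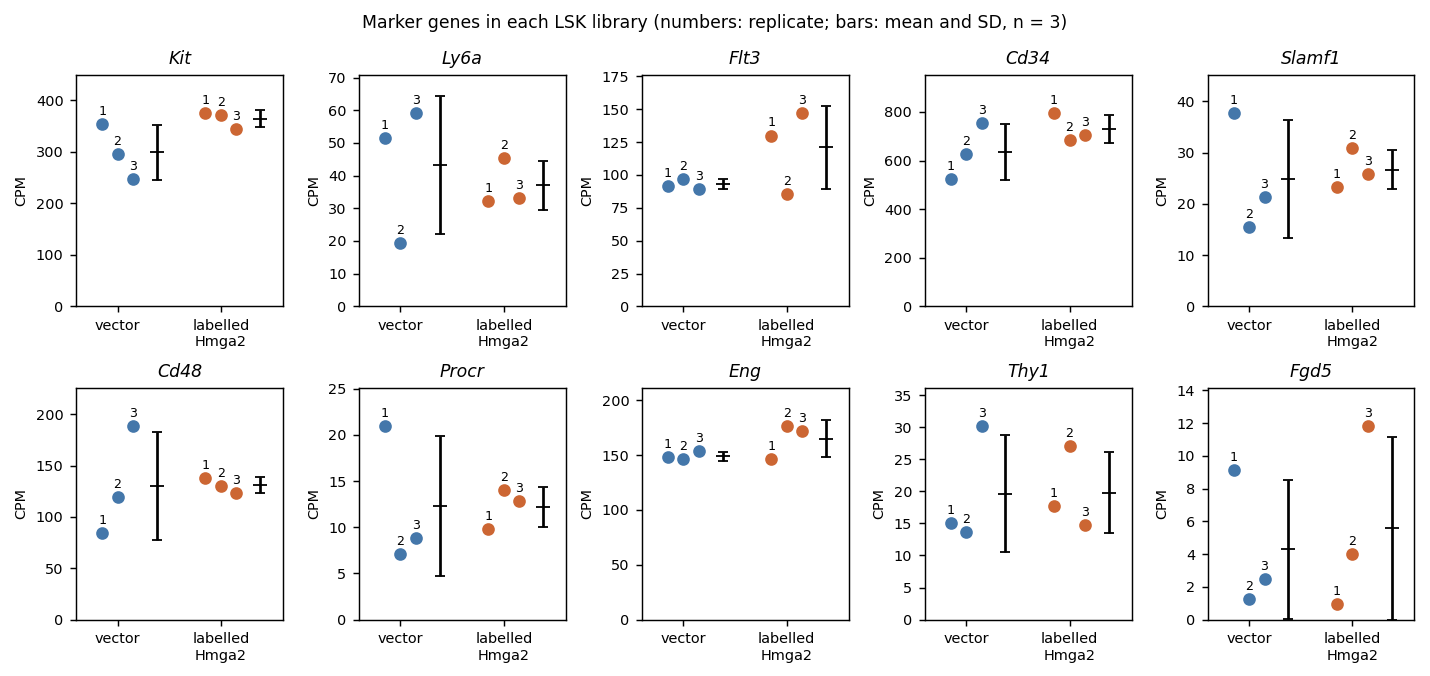
CPM of each marker gene (y axis, from 0) in the 3 vector libraries (blue) and the 3 libraries labelled Hmga2 (orange), with the replicate number above each point and the mean and SD (n = 3) as black bars. In every panel the points of the groups overlap, and vector replicate 2 has the lowest point for Ly6a, Slamf1, Procr and Thy1.

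Kit encodes c-Kit, the receptor tyrosine kinase for stem cell factor and 1 of the 2 antigens the gate requires (chromosome 5, positions 75574916 to 75656722 on mm10). It was at 354, 296 and 248 CPM in vector replicates 1, 2 and 3 and at 375, 372 and 345 CPM in Hmga2 replicates 1, 2 and 3. The vector libraries were spread out, while the other 3 lay close together, and only vector replicate 1 reached into their range. The log2 fold change was 0.28 (SE 0.13; 95% interval -0.03 to 0.59; adjusted p = 0.855, edgeR), so the upper bound corresponds to a 1.51-fold higher level. The estimate was 0.42 without vector replicate 1 (adjusted p = 0.424) and 0.17 without vector replicate 3. Within the plasma cell-rich libraries it was 0.31 and within the others 0.28, without a test.

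Ly6a encodes Sca-1, a small protein held in the membrane by a lipid anchor, whose RNA is known to be induced by interferons (chromosome 15, positions 74994877 to 74998031). It gave 51.5, 19.3 and 59.1 CPM in vector replicates 1 to 3, against 32.2, 45.5 and 33.2 CPM in Hmga2 replicates 1 to 3. The highest and the lowest library were both vector libraries, 3.06-fold apart, and the libraries labelled Hmga2 lay between them. The log2 fold change was -0.23 (SE 0.38; 95% interval -1.13 to 0.67; adjusted p = 0.943, edgeR). Its size and sign rested on single libraries, since it was -0.58 without vector replicate 2 (adjusted p = 0.999, edgeR) and turned to 0.06 without vector replicate 3. Among plasma cell-rich libraries the single library labelled Hmga2 (45.5 CPM) was below the vector mean of 55.3 CPM, a log2 difference of -0.28. Among the others the mean of 32.7 CPM was above the single vector library at 19.3 CPM, a log2 difference of 0.76. With a model term for plasma cell-rich libraries the log2 fold change was 0.23 (SE 0.24). The part of plasma cell RNA in the level of Ly6a was not tested.

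The Ly6a row may also hold reads of its neighbours. Of the 1297 different windows of 50 bases in its GENCODE transcripts, 246, or 19.0%, occur in transcripts of other genes, among them the paralogs Ly6c1, Ly6c2 and Ly6i. The share was at most 2.38% for each of the other 9 markers and 0 for Kit, Cd48, Procr, Thy1 and Fgd5. Ly6c2, a monocyte and granulocyte precursor antigen gene, gave 58.5, 145 and 45.3 CPM in vector replicates 1 to 3, against 34.6, 30.4 and 36.7 CPM in Hmga2 replicates 1 to 3. It was highest in vector replicate 2, the library in which Ly6a was lowest. Its log2 fold change was -1.29 (SE 0.41; adjusted p = 0.855, edgeR). All 10 tested genes of the Ly6 and uPAR family, Ly6a included, had a log2 fold change below 0, with a median of -0.51 against 0.0 over all genes, and 0 passed the adjusted threshold. With library totals in place of TMM factors 9 were below 0, without vector replicate 3 the median was -0.22 with 8 of 11 below 0, and without Hmga2 replicate 2 it was -0.81 with 9 of 11 below 0. Ly6e, the abundant member of the family, had equal group means of 1280 CPM and a log2 fold change of -0.00.

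Thy1, a lipid-anchored surface protein present at a low level on mouse stem cells and at a high level on T cells (chromosome 9, positions 44043384 to 44048579), gave 15.1, 13.6 and 30.1 CPM in vector replicates 1 to 3, against 17.7, 27.0 and 14.8 CPM in Hmga2 replicates 1 to 3. A single library in each group, vector replicate 3 and Hmga2 replicate 2, stood well above the other 4. The group means of 19.6 and 19.8 CPM were nearly equal (log2 fold change 0.02, SE 0.35; adjusted p = 0.999, edgeR). The T cell genes Cd3d, Cd3e, Cd3g, Cd8a and Trac were below 1 CPM in every library, while Cd4 reached 1.32 CPM in vector replicate 1 and Trbc1 2.1 CPM in Hmga2 replicate 3. Nkg7, a gene of cytotoxic cells on the same list of 10 T and NK cell genes, was at 123 to 231 CPM and highest in vector replicate 3, as was Thy1. Other cytotoxic cell genes of that list did not share this, since Gzma was below 1 CPM in every library and Ncr1 was highest, at 1.28 CPM, in Hmga2 replicate 3.

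Slamf1 and Procr, which mark the stem cell end of the gate, varied together from library to library. Slamf1 encodes CD150, a receptor of the SLAM family that binds itself on neighbouring cells (chromosome 1, positions 171767127 to 171801184). It gave 37.7, 15.4 and 21.4 CPM in vector replicates 1 to 3, against 23.3, 30.9 and 25.8 CPM in Hmga2 replicates 1 to 3. Procr encodes EPCR, the receptor of the anticoagulant protein C (chromosome 2, positions 155751117 to 155755471). It gave 20.9, 7.11 and 8.83 CPM in vector replicates 1 to 3, against 9.78, 14.0 and 12.8 CPM in Hmga2 replicates 1 to 3. Both genes were highest in vector replicate 1, next in Hmga2 replicate 2, and lowest in vector replicate 2, and the full order of the 6 libraries was the same for both. Across the 6 libraries Pearson's r of log2 CPM was 0.97, and it was 0.96 to 0.98 with any library left out. The points share library and depth, and this pair had the highest r of the 45 pairs of markers.

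Between the groups Slamf1 had a log2 fold change of 0.10 (SE 0.31; 95% interval -0.63 to 0.84; adjusted p = 0.973, edgeR). Procr had -0.02 (SE 0.40; 95% interval -0.97 to 0.94; adjusted p = 0.999, edgeR). These intervals leave room for a 1.78-fold higher level of Slamf1 and a 1.91-fold higher level of Procr. Without vector replicate 1 the estimates were 0.53 and 0.61 (adjusted p = 0.433 and 0.429), and without vector replicate 2 they were -0.15 and -0.29.

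Fgd5 encodes an exchange factor for the small GTPase Cdc42 and is not a surface protein, but its expression is used to mark stem cells in reporter mice (chromosome 6, positions 91978878 to 92076004). It was the least abundant and the most variable of the markers, with 9.14, 1.27 and 2.47 CPM in vector replicates 1 to 3, against 0.933, 4.0 and 11.8 CPM in Hmga2 replicates 1 to 3. The lowest and highest libraries were 12.7-fold apart, both labelled Hmga2, with 33 and 405 reads behind them. Its log2 fold change of 0.37 came with an SE of 0.97 (adjusted p = 0.966, edgeR), and it ranged from -0.81 without Hmga2 replicate 3 to 1.58 without vector replicate 1. Fgd5 went partly with Procr (r = 0.77 over 6 libraries), as Hmga2 replicate 3 was high for Fgd5 and near the mean for Procr. In contrast, its relative Fgd3 was at 48.2 ± 2.98 and 60.8 ± 4.42 CPM (SD, n = 3 each; log2 fold change 0.33, SE 0.09; adjusted p = 0.855, edgeR), and Cdc42 at 349 to 394 CPM in all libraries.

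Eng encodes endoglin, a co-receptor for TGF-beta and BMP ligands (chromosome 2, positions 32646595 to 32682669), and was the steadiest marker. It gave 148, 146 and 154 CPM in vector replicates 1 to 3, against 146, 176 and 172 CPM in Hmga2 replicates 1 to 3. Hmga2 replicate 1 lay at the vector level and the other 2 above it. The within-group standard deviation of 0.11 on the log2 scale was lower than that of most tested genes with a mean of at least 10 CPM (percentile 29.9), whereas Ly6a was at percentile 97.9 and Procr at 97.6. The log2 fold change was 0.14 (SE 0.09; 95% interval -0.07 to 0.35; adjusted p = 0.855, edgeR). The endoglin receptor list held the intracellular signalling genes Smad1 and Smad5 as well as receptor genes. All 8 of its tested genes had a log2 fold change above 0, with a median of 0.25 and 0 past the adjusted threshold. Of these genes 7 of 8 were above 0 without vector replicate 1 or without Hmga2 replicate 3. Among them the type II receptor gene Tgfbr2 was at 52.1 ± 0.488 and 64.3 ± 5.83 CPM and the co-receptor gene Tgfbr3 at 41.3 ± 9.85 and 55.1 ± 3.34 CPM (SD, n = 3 each).

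**Figure D2:**
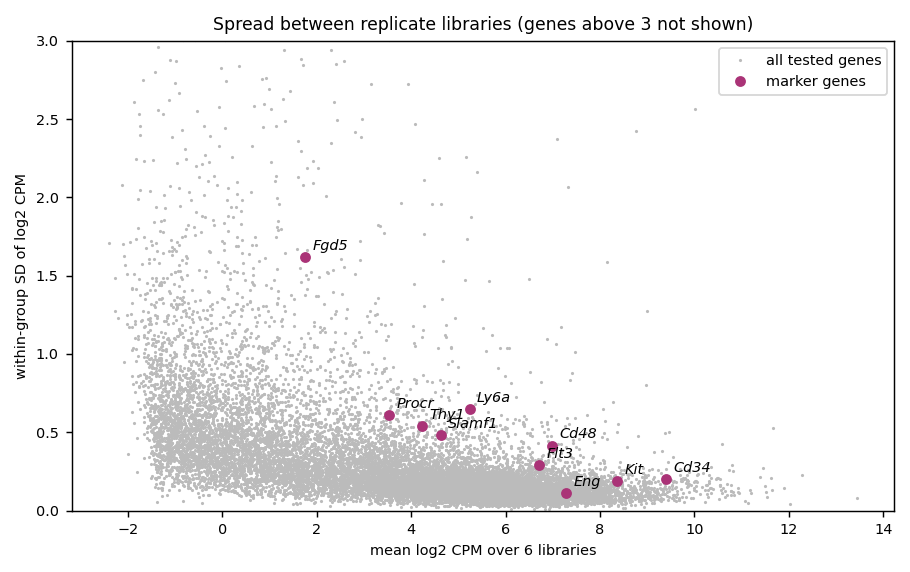
Within-group standard deviation of log2 CPM (y axis) against mean log2 CPM over the 6 libraries (x axis) for all tested genes (grey) and the 10 marker genes (purple), leaving out 110 genes above 3. Ly6a (0.65), Procr (0.61) and Cd48 (0.41) lie above most genes of their level, and Eng (0.11) lies among them.

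Cd34 and Cd48, antigens gained by progenitors, formed another pair. Cd34 encodes a sialomucin of the cell surface (chromosome 1, positions 194938819 to 194961279) and gave 526, 626 and 755 CPM in vector replicates 1 to 3, against 795, 686 and 706 CPM in Hmga2 replicates 1 to 3. Cd48 encodes a lipid-anchored SLAM family protein that binds CD244 (chromosome 1, positions 171682009 to 171705258). It gave 84.4, 119 and 188 CPM in vector replicates 1 to 3, against 138, 130 and 123 CPM in Hmga2 replicates 1 to 3. Vector replicate 1, which was highest for Slamf1 and Procr, was lowest for Cd34 and Cd48. The libraries labelled Hmga2 had Cd48 within a narrow band inside the wide vector range. Pearson's r between Cd34 and Cd48 was 0.86 over the 6 libraries and 0.61 without vector replicate 1.

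Cd34 had a log2 fold change of 0.20 (SE 0.14; 95% interval -0.14 to 0.54; adjusted p = 0.863, edgeR), and 0.08 without vector replicate 1. For Cd48 it was 0.00 (SE 0.26; 95% interval -0.61 to 0.62; adjusted p = 0.999, edgeR). Cd48 and Slamf1 lie 61868 bases apart in the SLAM gene cluster, and r between their levels was -0.49 over 6 libraries, 0.05 without vector replicate 1 and -0.90 without vector replicate 2. For Cd48 and Procr, r was -0.66 over 6 libraries, -0.17 without vector replicate 1 and -0.94 without vector replicate 2, so for both pairs the size of r depended on single libraries. On the log2 scale the ratio of Slamf1 to Cd48 was -1.16, -2.95 and -3.13 in the vector libraries and -2.57, -2.08 and -2.26 in the libraries labelled Hmga2. The group means of this ratio, -2.41 ± 1.09 and -2.30 ± 0.25 (SD, n = 3 each), differed by less than the spread of the vector libraries.

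The stretches before the starts of these paired genes are shown because the members of each pair varied together, so that a reader can set their sequences side by side. RefSeq promoter windows on GRCm38.p6 were matched for 8 of the 10 markers, all but Ly6a and Thy1, and the 250 bases before the start are printed on the strand of the gene, which is the plus strand for all 4. Capitals mark matches, on either strand, to GATA motifs (AGATAA or TGATAA, and AGATAG or TGATAG), ETS motifs (CGGAAG or AGGAAG) and RUNX motifs (TGTGGT or TGCGGT), and no match of one kind overlaps another.
Slamf1: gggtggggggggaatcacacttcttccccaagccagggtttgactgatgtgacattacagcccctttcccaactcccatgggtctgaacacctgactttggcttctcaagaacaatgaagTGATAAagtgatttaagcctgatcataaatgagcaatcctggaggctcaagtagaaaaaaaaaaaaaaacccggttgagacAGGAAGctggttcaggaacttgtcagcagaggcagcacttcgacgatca
Procr: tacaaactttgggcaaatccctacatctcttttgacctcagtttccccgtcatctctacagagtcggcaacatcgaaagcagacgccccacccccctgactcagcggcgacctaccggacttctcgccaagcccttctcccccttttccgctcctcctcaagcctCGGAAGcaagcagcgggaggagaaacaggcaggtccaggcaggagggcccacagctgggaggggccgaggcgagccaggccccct
Cd34: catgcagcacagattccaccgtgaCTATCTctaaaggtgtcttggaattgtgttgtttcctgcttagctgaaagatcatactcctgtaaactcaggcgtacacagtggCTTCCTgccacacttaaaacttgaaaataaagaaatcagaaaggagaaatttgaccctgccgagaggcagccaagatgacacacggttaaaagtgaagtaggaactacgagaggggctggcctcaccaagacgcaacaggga
Cd48: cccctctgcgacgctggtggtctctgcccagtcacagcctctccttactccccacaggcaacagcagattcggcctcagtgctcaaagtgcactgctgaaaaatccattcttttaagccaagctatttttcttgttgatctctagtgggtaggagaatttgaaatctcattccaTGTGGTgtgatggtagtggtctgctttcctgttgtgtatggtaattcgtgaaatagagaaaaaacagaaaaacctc
The windows are chr1:171766882-171767131 for Slamf1, chr2:155750967-155751216 for Procr, chr1:194938571-194938820 for Cd34 and chr1:171681742-171681991 for Cd48. Slamf1 and Cd34 each hold 1 GATA and 1 ETS match, Procr holds 1 ETS match and Cd48 holds 1 RUNX match. Among 32851 windows of the same length 26.5% hold a GATA match, 39.2% an ETS match and 18.6% a RUNX match. A and T filled 52.8% of the Slamf1 window and 38.4% of the Procr window, while the Cd34 and Cd48 windows were close at 53.6% and 54.0%, against a median of 47.6% over all windows.

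Flt3, the receptor of Flt3 ligand and the marker of lymphoid-primed progenitors (chromosome 5, positions 147330741 to 147400489), gave 91.9, 97.0 and 89.6 CPM in vector replicates 1 to 3, against 130, 85.6 and 147 CPM in Hmga2 replicates 1 to 3. Hmga2 replicates 1 and 3 were above all vector libraries and Hmga2 replicate 2 was below them. The log2 fold change of 0.38 came with an SE of 0.18 (95% interval -0.05 to 0.82; adjusted p = 0.855, edgeR). Without Hmga2 replicate 2 it was 0.58 (SE 0.09; adjusted p = 0.734, edgeR), and without Hmga2 replicate 3 it was 0.22.

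Hmga2 replicates 1 and 3 also stood apart from the other 4 libraries in genes of the sex chromosomes. The Y-linked genes Ddx3y, Eif2s3y, Kdm5d and Uty summed to 192 and 127 CPM there and to 5.26 to 21.5 CPM elsewhere, while Xist was at 29.2 and 166 CPM there and at 466 to 637 CPM elsewhere. With a term for the summed Y-linked level, the log2 fold change of Flt3 was -0.00287 (SE 0.16), and that of Kit was 0.29 (SE 0.18). Both libraries with a high Y-linked level, Hmga2 replicates 1 and 3, carry the Hmga2 label. This term and the label therefore cannot be fully told apart. These 2 libraries are also poor in plasma cell RNA, as is vector replicate 2, in which Flt3 was at 97.0 CPM. Among libraries rich in plasma cell RNA, Flt3 was at 85.6 CPM in the library labelled Hmga2 and at a mean of 90.7 CPM in the vector libraries. The part of either feature in the level of Flt3 was not tested beyond these values.

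**Figure D3:**
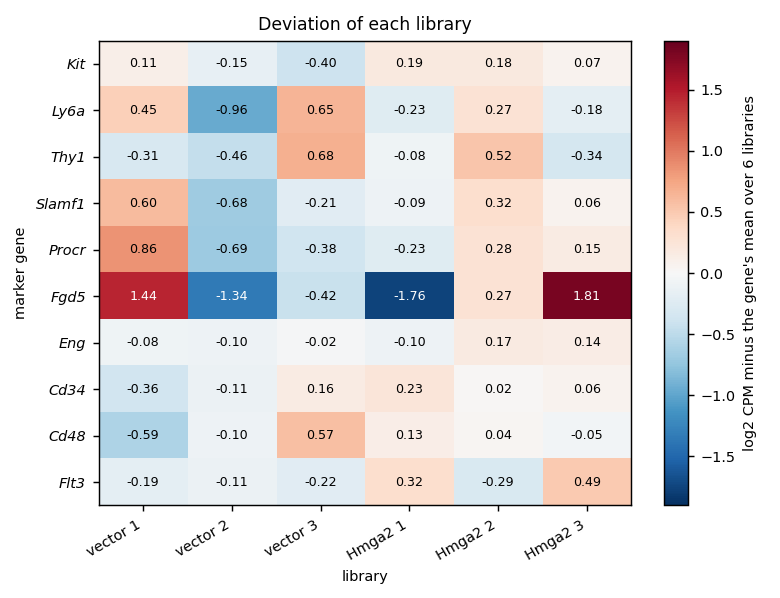
Log2 CPM of each marker gene minus its mean over the 6 libraries (color and printed value), with libraries in columns. Vector replicate 1 is high for Slamf1 (0.60) and Procr (0.86) and low for Cd48 (-0.59), vector replicate 2 is low for Ly6a (-0.96), Slamf1 (-0.68) and Procr (-0.69), and Flt3 is high in Hmga2 replicates 1 (0.32) and 3 (0.49).

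Levels of different genes were compared per kilobase of merged exons, as a mean over the 6 libraries. Cd48 (110 ± 28.3 CPM per kilobase; SD, n = 6) and Cd34 (93.6 ± 13.2) were at the top, and their ranges overlapped. Below them came Eng (38.8 ± 3.36), Kit (37.2 ± 5.60) and Ly6a (33.3 ± 12.1), whose ranges overlapped with each other but not with that of Cd34. Flt3 (17.3 ± 4.11) overlapped with Ly6a only through vector replicate 2, the library with the least Ly6a. Thy1 (6.59 ± 2.35), Procr (6.02 ± 2.44) and Slamf1 (4.18 ± 1.26) were lower and overlapped with each other, although Procr was above Slamf1 in 6 of 6 libraries. Fgd5 (0.784 ± 0.715) was below all others in every library. Per kilobase, the progenitor antigen genes Cd34 and Cd48 thus stood above the stem cell marker genes Procr, Slamf1 and Fgd5 in all 6 libraries. This order did not extend to every marker, since Eng (36.0 to 43.4), also carried by stem cells, was above the progenitor marker gene Flt3 (13.9 to 23.8). With the longest transcript as the length, Cd34 (223 CPM per kilobase) was above Cd48 (110) and Kit (63.3) above Eng (45.9), and the rest of the order was the same.

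**Figure D4:**
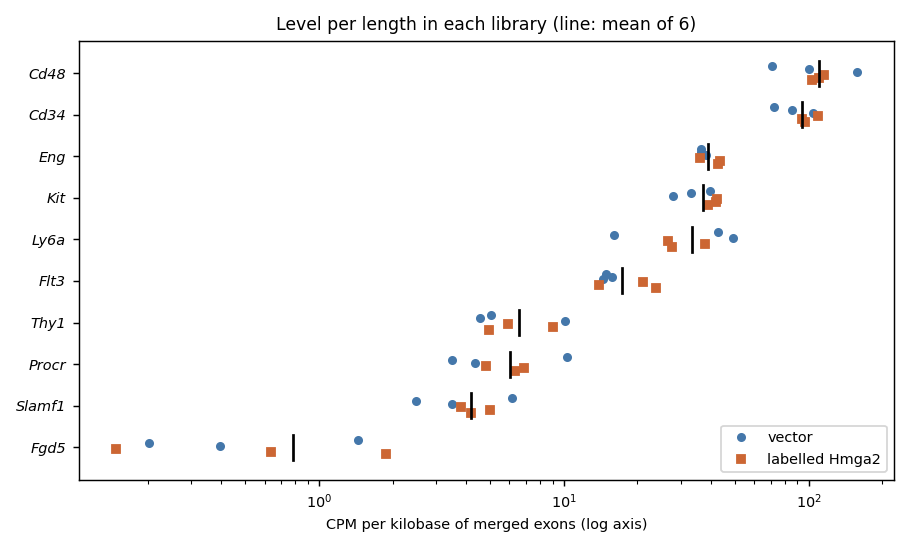
CPM per kilobase of merged exons (x axis, log scale) of each marker gene in each library, with vector libraries as blue circles, libraries labelled Hmga2 as orange squares and the mean of 6 as a black line. Genes are ordered by their mean, from Cd48 (110) to Fgd5 (0.784), and the vector and labelled Hmga2 points are mixed within every gene.

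Other surface genes of stem and progenitor cells were compared with the markers through a list of 33 symbols, of which 32 were tested. Of these, 25 had a log2 fold change above 0, with a median of 0.15 (0.07 without Hmga2 replicate 3 to 0.24 without vector replicate 1), and 0 passed the adjusted threshold. Abundant members were Spn, encoding the sialophorin CD43, at 567 ± 41.6 and 619 ± 43.7 CPM, and Cd93, a C-type lectin-like receptor gene, at 182 ± 11.1 and 211 ± 5.49 CPM (vector, then labelled Hmga2; SD, n = 3 each). Over the 6 libraries 8 of the 32 had r of at least 0.8 with Procr and 3 had r of at most -0.8. The former included Esam, Ctnnal1, Cd200, Tie1, Tek, Neo1 and Cd38, and the latter included Fcgr2b and Cd53. Esam, an endothelial and stem cell adhesion molecule gene, gave 42.9, 12.4 and 19.1 CPM in vector replicates 1 to 3, against 17.0, 43.5 and 34.9 CPM in Hmga2 replicates 1 to 3 (r = 0.92 with Procr). Vector replicate 1 and Hmga2 replicate 2 were high for Esam, as they were for Procr. These correlations are descriptions of values from the same 6 libraries, and RNA of endothelial genes was read beside them. Of 11 endothelial genes, Cdh5 and Cldn5 were below 1 CPM in every library, while Pecam1 was at 76.5 to 115 CPM and Egfl7 at 53.5 to 83.8 CPM, and Emcn was highest, at 7.45 CPM, in Hmga2 replicate 2. Tie1 and Tek stand in both lists.

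Partner genes of the markers gave no call either. Of 10 tested SLAM family and adaptor genes 5 had a log2 fold change above 0 and 5 below, with a median of -0.04. Cd84, a family member in the same gene cluster, was at 46.6 ± 8.83 and 58.2 ± 0.973 CPM (log2 fold change 0.32, SE 0.14; adjusted p = 0.855, edgeR). Cd244, whose product binds CD48, was at 24.6 ± 4.51 and 33.0 ± 4.80 CPM. Of 6 tested class III receptor kinase and ligand genes 4 were above 0, and Kitl, encoding the ligand of c-Kit, was below 1 CPM in every library, while Flt3l was at 23.5 to 31.9 CPM. In the protein C receptor pathway 4 genes were tested, with 2 above 0, and the thrombin receptor gene F2r was at 152 ± 12.1 and 202 ± 44.9 CPM. Of 5 tested genes of the CD34 family list 3 were above 0. Podxl, encoding the CD34 relative podocalyxin, gave 76.2, 51.9 and 28.4 CPM in vector replicates 1 to 3, against 22.7, 23.3 and 33.2 CPM in Hmga2 replicates 1 to 3 (log2 fold change -0.99, SE 0.34; adjusted p = 0.855, edgeR). Of 7 tested Fgd family genes 5 were above 0, with a median of 0.17. With a library left out, the medians of these lists took either sign: -0.12 to 0.12 for the SLAM list, -0.03 to 0.19 for the class III kinases, -0.13 to 0.31 for the protein C pathway, -0.02 to 0.25 for the CD34 family and -0.01 (without vector replicate 2) to 0.30 (without vector replicate 1) for the Fgd family, which was at 0.01 without Hmga2 replicate 3.

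Markers of other cell types were read beside the sort markers, and in each of these lists 0 genes passed the adjusted threshold in edgeR. All 10 granulocyte genes had a log2 fold change below 0, with a median of -1.63, and DESeq2 called 3 of them lower (Ltf, Ms4a3 and Ngp). The fold changes differed with the level of the gene. Mpo, at 1990 to 6340 CPM, had -0.57, Prtn3 -0.67, Ctsg -0.51, Ms4a3 -1.04 and Elane -1.5. Ltf, Ngp, Camp, S100a8 and S100a9 had -3.18 to -1.75 and were at no more than 5.8 CPM in any library. DESeq2, which called 0.424% of all genes, also called 2 erythroid genes (Klf1 and Rhd) and Xbp1 of the plasma cell list lower, and the stroma gene Cxcl12 higher. Of the erythroid genes 7 of 11 were below 0 (median -0.56), and of the B and plasma cell genes 8 of 10 (median -1.51). The B and plasma cell genes summed to 4570 to 13800 CPM in the plasma cell-rich libraries and to 630 to 850 CPM in the others. Igha, by which these libraries were defined, is part of that sum, so the split is not a separate observation. Of the endothelial genes 5 of 8 were above 0 (median 0.27), with sums of 216 to 272 CPM in the vector libraries and 264 to 303 CPM in those labelled Hmga2. Of the stroma genes 4 of 6 were above 0 (median 0.76), of the mast cell and basophil genes 3 of 7 (median -0.21), of the macrophage and dendritic cell genes 5 of 8 (median 0.12), and of the T and NK cell genes 1 of 2. Among the tested stroma genes Pdgfrb was at 41.2 to 68.6 CPM, with a log2 fold change of 0.07. The other tested stroma genes were at low levels, with no value above 4.31 CPM in any library. With a library left out, the median of the macrophage and dendritic cell genes ranged from -0.49, with 0 of 8 above 0 (without Hmga2 replicate 3), to 0.57 (without Hmga2 replicate 1), and that of the mast cell and basophil genes from -0.70 (without Hmga2 replicate 2) to 0.12 (without vector replicate 1). The medians of the granulocyte genes (-2.00 to -1.31), the erythroid genes (-0.89 to -0.29) and the B and plasma cell genes (-2.03 to -1.08) stayed below 0 in these fits, and those of the endothelial genes (0.13 to 0.37) and stroma genes (0.50 to 0.97) stayed above 0. For the B and plasma cell genes the median was -0.41 with a term for plasma cell-rich libraries. With immunoglobulin genes left out it was -0.45 over the 7 genes that remained. The part of all these cell types in the levels of the sort markers was not tested.

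**Figure D5:**
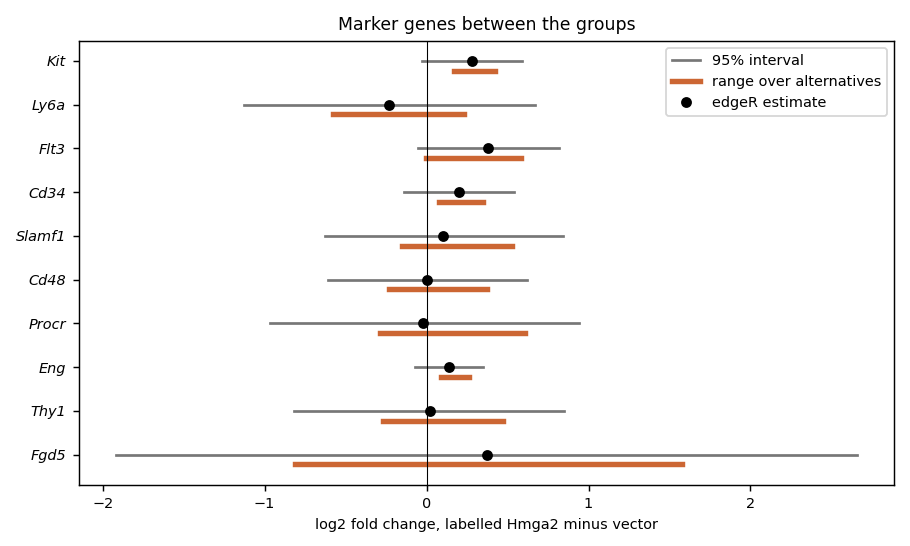
Log2 fold change, labelled Hmga2 minus vector (x axis), of each marker gene from edgeR (black point) with its 95% interval (grey line) and the range over 14 alternative analyses (orange line). Every interval includes 0, and only for Kit, Cd34 and Eng does the range over alternatives stay above 0.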

How the data were processed

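The values deposited by the authors are expected counts (estimated counts) per gene symbol, 1 file per library, judged from the values: between 67.33% and 70.08% of those above 0 are whole within 1e-06, and totals differ. Tools were Partek 3.0 and Bowtie2 on mm10, per the submitters' processing notes; the sources used here do not give the counter, annotation or strand setting. After rounding, edgeR 4.0.16 (R 4.3.3) was run on all genes (low counts removed by filterByExpr, TMM factors, quasi-likelihood F test on group alone, Benjamini-Hochberg adjustment over 16739 genes, threshold 0.05), with DESeq2 1.42.0 as the other tool. CPM are TMM-scaled, and log2 CPM used a prior count of 2. At these depths 3 reads are 0.0846 to 0.121 CPM, which covers counting error alone. Replicate pairs differed beyond sampling noise (chi-square divided by its degrees of freedom, 24.8 to 57). Libraries with Igha above 1000 CPM were called plasma cell-rich. In counts simulated for 16480 genes of this comparison edgeR recovered 51 of 100 genes changed 2-fold and 81 of 99 changed 4-fold, with 9 false calls. The changed genes were drawn at random from genes above a minimum mean count, so the rates leave out genes of lower count. The markers spread more than most genes (median SD 0.41 against 0.14 at 10 CPM or more), so these rates need not hold for them. Gene positions and lengths are from GENCODE M21 on the same build.

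The markers, the 19 gene lists and the alternatives were chosen with earlier results of these data known. Named genes were the 10 markers, Hmga2, up to 4 abundant members of each companion list, and, for Kit, Ly6a, Flt3 and Procr, the 3 genes of highest Pearson r over the 6 libraries with a mean of at least 20 CPM. Ly6c1, Ly6i, Esam, Ctnnal1, Cd200, Tie1, Tek, Neo1, Cd38, Fcgr2b, Cd53, Kitl, Igha, Xist, Vwf, Ltf, Ms4a3, Ngp, Camp, S100a8, S100a9, Klf1, Rhd, Xbp1, Cxcl12, Nkg7, Ncr1, Cd4, Trbc1, Pecam1, Egfl7, Emcn, the Y-linked genes and the genes named as below 1 CPM were named after their values were seen. The alternatives comprised single libraries left out, a replicate block, other size factors, library totals, no count filter, DESeq2, immunoglobulin genes left out, and terms for plasma cell-rich libraries and Y-linked genes. Some listed genes are counted in their lists but not reported by name here.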

Additional observations from a re-analysis of the deposited data

How the results depend on the processing

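Of 140 log2 fold changes of the 10 markers under 14 alternatives, 119 kept their sign, 21 had the other sign and 0 passed the adjusted threshold (smallest adjusted p = 0.424, Kit without vector replicate 1); the cause of the sign changes was not tested. Leaving out each library in turn gave -0.58 to 0.0618 for Ly6a, -0.15 to 0.53 for Slamf1, -0.23 to 0.37 for Cd48, -0.29 to 0.61 for Procr, -0.27 to 0.47 for Thy1, -0.81 to 1.58 for Fgd5 and -0.49 to 0.0631 for Hmga2. For Kit (0.17 to 0.42), Flt3 (0.22 to 0.58), Cd34 (0.0788 to 0.35) and Eng (0.0873 to 0.22) the sign held in these fits. With a term for plasma cell-rich libraries Ly6a was 0.23 and Procr 0.28. With a term for Y-linked genes Ly6a was 0.10, Flt3 -0.00287, Cd48 -0.0127, Procr 0.27 and Hmga2 0.30. The Y-linked level was high only in libraries labelled Hmga2, so this term and the label cannot be fully told apart. Cd48 was -0.00272 with immunoglobulin genes left out. The labels do not say whether replicate numbers pair the libraries. Correlations of deviations between same-numbered libraries were -0.205, -0.499 and -0.263, which cannot settle whether they were paired. With a replicate block Procr was 0.15, the other 9 markers kept their sign, and 0 genes passed. The count of genes past the threshold, 0 in edgeR, was 1 without the count filter and 71 in DESeq2, with 0 markers in each; it was 0 with every library left out in turn. In edgeR 935 genes had an unadjusted p under 0.05. Fgd5 had the fewest reads of the markers, 33 to 405 per library, and the library with its lowest level was the deepest.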

Other observations

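Genes whose levels over the 6 libraries were most like those of a marker are listed as a description, since the highest of 7797 correlations over 6 points is high by selection. For Kit they were Tmem194b (r = 0.995), Cnst (r = 0.991) and Cd84 (r = 0.991), the last being the SLAM family gene described above. For Ly6a they were Ctbp1 (r = 0.967), encoding a transcriptional corepressor, Fam102b (r = 0.965) and Nipsnap1 (r = 0.964). Ctbp1 ranged only from 250 to 271 CPM, while Ly6a varied 3.06-fold. For Flt3 they were Parp3 (r = 0.982), encoding an ADP-ribose transferase, the kinase gene Nlk (r = 0.982) and Elmo2 (r = 0.974). For Procr they were Pkn3 (r = 0.99), the linker histone gene H1f0 (r = 0.984) and Coro2a (r = 0.982). H1f0 gave 116, 51.2 and 56.7 CPM in vector replicates 1 to 3, against 66.2, 92.9 and 74.5 CPM in Hmga2 replicates 1 to 3, and the libraries stood in the same order as for Procr.

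Megakaryocyte genes, which stem cells also express in part, stood in a similar order. The 10 genes of that list summed to 1040, 656 and 577 CPM in the vector libraries and to 712, 1010 and 964 CPM in the libraries labelled Hmga2. All 10 had a log2 fold change above 0, with a median of 0.31 and 0 past the adjusted threshold in edgeR or DESeq2, and with a library left out the median ranged from 0.08 (without vector replicate 3) to 0.64 (without vector replicate 1), with 7 to 10 genes above 0. Von Willebrand factor, Vwf, used to mark platelet-biased stem cells gave 169, 62.7 and 42.5 CPM in vector replicates 1 to 3, against 72.6, 95.2 and 192 CPM in Hmga2 replicates 1 to 3.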
